A study of Komagataella pastoris with 6 samples.

Results

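Pre-mRNA splicing and mRNA 3' end formation are described here in the methylotrophic yeast *Komagataella pastoris* (*Pichia pastoris*) by the transcripts of 39 genes, out of 5030 in the deposited expression table. The genes were chosen by a rule on their product descriptions, written with earlier results of these data known: descriptions that name the spliceosome, a small nuclear ribonucleoprotein (snRNP), splicing, a U snRNA or polyadenylation were taken, and those that name tRNA, rRNA, snoRNPs or the nucleolus were left out. Of the 39 genes, 33 are described as splicing genes and 6 as genes of 3' end formation. The rule does not take in the whole machinery. Several splicing helicases of the DEAH family escaped it, and the related lists below, by their wording. The control strain, HTX-33, carries the genotype label WT, and the other strain, HTX33_ILV3, overexpresses Ilv3 in that background for branched-chain amino acid production. Each strain was represented by 3 libraries, called biological replicates in the series design, and all 6 cultures grew in basal salt medium with 0.5% methanol and were harvested in exponential phase. The sources used here do not give the promoter, the copy number or the number of clones of the ILV3 construct.

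An intron is removed by the spliceosome, which is built anew on each pre-mRNA. The U1 snRNP binds the 5' splice site and the U2 snRNP the branch site, the U4/U6.U5 tri-snRNP then joins, and after U1 and U4 have left, a set of proteins that includes Cef1p helps to form the active site. The 3' end of an mRNA is made by the cleavage and polyadenylation factor (CPF) together with cleavage factors, which bind signals near the end of the transcript, cut it and let poly(A) polymerase add a tail. In *Saccharomyces cerevisiae*, introns lie in a minority of genes, many of which encode ribosomal proteins.

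Values are in TPM, a length-scaled share of all transcripts, given as mean ± SD (n = 3 libraries of a strain). Each library sums to 1000000, so a value is a share and not a number of molecules per cell, and the sequencing depth is unknown. A log2 fold change compares the ILV3 strain with the control after taking log2(TPM + 1), so changes of weakly expressed genes are understated. A gene was called higher or lower at a limma adjusted p under 0.05, two-sided, with Benjamini-Hochberg adjustment over all 5025 genes tested. As a check of the labels, ILV3 (PAS_chr1-4_0458), the dihydroxyacid dehydratase gene, was at 79.8 to 91.9 TPM in the control libraries and at 2564 to 2680 TPM in the ILV3 libraries. The alcohol oxidase transcript (PAS_chr4_0821) was at 20873 TPM or more in every library. It was called higher in the ILV3 strain, from 21687 ± 704 to 30219 ± 1998 TPM (log2 fold change 0.48, limma adjusted p = 0.0002). Between 10 and 20 genes a library were listed at 0, none of them among the 39.

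Most splicing and 3' end transcripts stayed close to their control level. Of the 39 genes, all of which passed the filter on low values, 6 rose, 3 fell and 30 did not pass the test. Over all genes tested, 49.3% were called, 22.1% higher and 27.2% lower, so the 9 called of 39 (23.1%) are a smaller share than the background; no test of this difference was made. Which direction held more of all genes turned with the scaling, since quantile normalization gave 29.8% higher and 25.4% lower and moved the median log2 fold change of all genes from -0.020 to 0.022. The median log2 fold change was 0.03 for the 39 genes and -0.02 for all genes, and the median absolute log2 fold change was 0.12 against 0.19. None of the 39 changed by 2-fold or more, a limit passed by 3.1% of all genes together with a call. Control and ILV3 values were fully apart for 13 of the 39 genes (33.3%), 8 with the ILV3 strain higher and 5 with it lower, where the background is 57.2% (26.8% higher and 30.5% lower). Their log2 fold changes had a median SE of 0.075, against 0.065 for all genes.

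The counts moved with single libraries. Without ILV3 replicate 1, 3 genes were called higher in place of 6, while the share of all genes called higher was 18.7% in place of 22.1%. Without control replicate 2, 5 genes were called lower in place of 3, while the share of all genes called lower was 32.4% in place of 27.2%. The median log2 fold change of the 39 genes was then -0.0096. Control replicate 2 was the lowest control library for 28 of the 39 genes. It was also the control library with the lowest median over all genes, at 5.61 on the log2(TPM + 1) scale against 5.69 and 5.71, and the part of this offset in the counts was not tested.

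**Figure D1:**
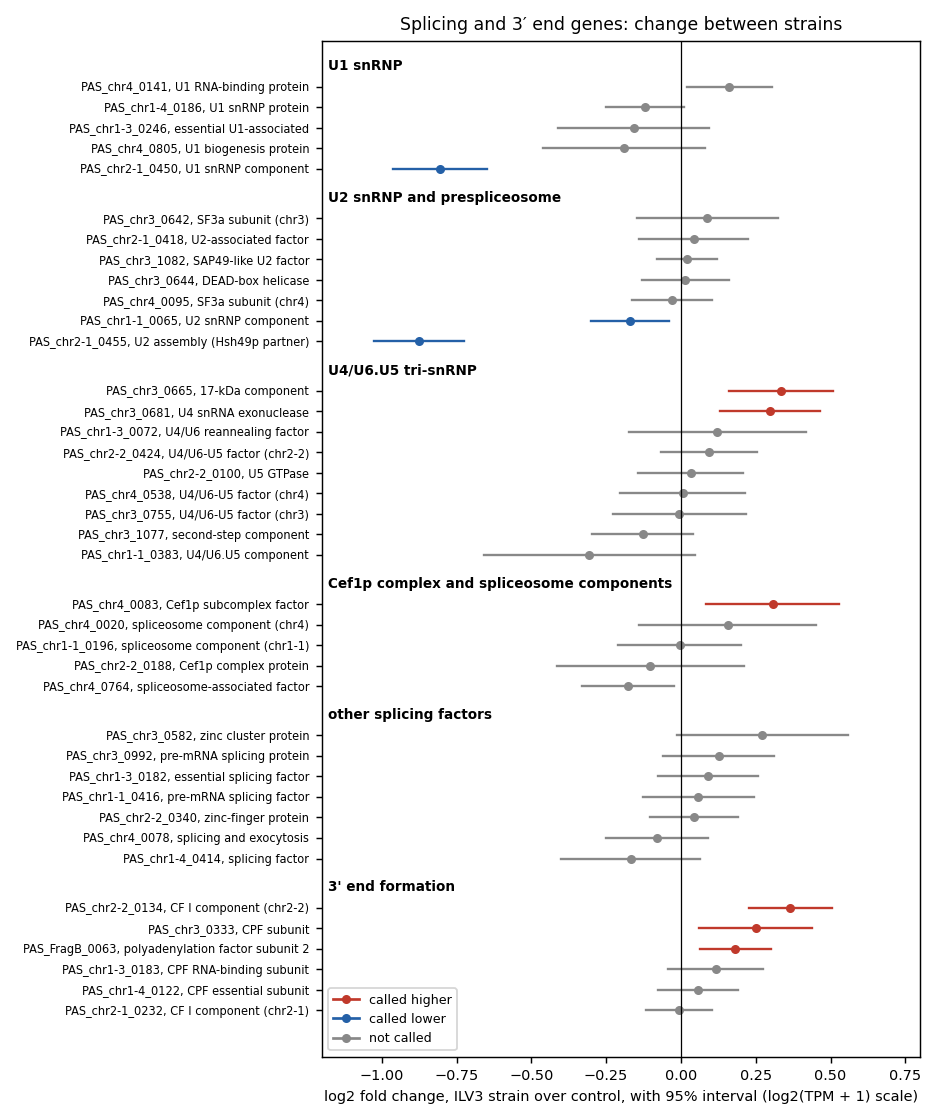
Log2 fold change, ILV3 strain against control (x axis, from log2(TPM + 1)) for each of the 39 genes (rows, by role); points are limma estimates, bars are 95% intervals, and colour gives the call. The 2 genes far to the left are a U1 snRNP component at -0.81 and the U2 assembly protein at -0.88, and the other 37 lie between -0.31 and 0.37.

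The 39 transcripts were of low to middle abundance. Their control means had a median of 28.4 TPM against 49.9 TPM over all genes tested, and 34 of the 39 lay below that overall median. The lowest was the factor that reanneals U4 and U6 during spliceosome recycling (PAS_chr1-3_0072), at 4.27, 3.89 and 4.75 TPM in the control libraries and 5.17, 4.70 and 4.43 TPM in the ILV3 strain. The highest was a U1 snRNP component (PAS_chr2-1_0450), which at 289 TPM stood 3.81-fold above the next gene, the 17-kDa component of the tri-snRNP at 75.7 TPM. Thus 1 gene held 289 of the 1386 TPM summed over the 39 genes in the control.

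**Figure D2:**
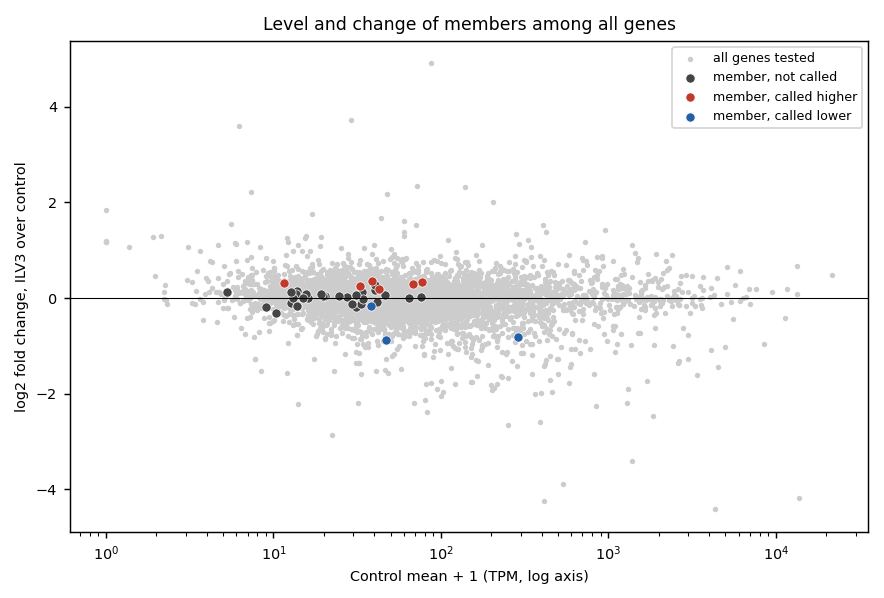
Log2 fold change (y axis) against control mean plus 1 (x axis, TPM, log axis) for all 5025 genes tested (grey) and the 39 genes of splicing and 3' end formation (coloured by call). Most of the 39 lie below the overall median of 49.9 TPM and near 0 change.

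Among the 5 genes of the U1 snRNP, the particle that first binds the 5' splice site, 1 fell and 4 did not pass the test. The share called lower was 20%, against 27.2% of all genes. The gene that fell is described as a component of the U1 complex required for splicing (PAS_chr2-1_0450). It lay at 285, 290.4 and 291 TPM in the control libraries and at 174, 176 and 146 TPM in the ILV3 libraries. The groups were far apart, and ILV3 replicate 3 was the lowest. The mean went from 289 ± 3.14 to 165 ± 16.5 TPM, 0.573 times the control (log2 fold change -0.81, SE 0.07, limma adjusted p = 1.71e-05), and the call was kept in every alternative run (adjusted p 6.40e-07 to 0.000209). In the authors' deposited table its log2 fold change is -0.71. The other 4 U1 genes summed to 92.5 ± 2.33 TPM in the control libraries and 92.2 ± 2.94 TPM in the ILV3 strain.

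Those 4 had values on both sides of no change. The U1 RNA-binding protein (PAS_chr4_0141) lay at 38.0, 39.1 and 40.7 TPM in the control libraries and 41.8, 47.6 and 42.9 TPM in the ILV3 strain. Its values did not overlap, with the ILV3 strain above, but it did not pass the test (log2 fold change 0.16, limma adjusted p = 0.0608). It did pass with median-ratio scaling (adjusted p = 0.0271) and with quantile normalization (0.0116), the range over its alternatives being 0.0116 to 0.218. A U1 protein involved in splicing (PAS_chr1-4_0186) was at 32.4 ± 1.25 and 29.7 ± 0.854 TPM, again without overlap and without a call (limma adjusted p = 0.116). The essential U1-associated protein (PAS_chr1-3_0246) and the protein needed for U1 biogenesis (PAS_chr4_0805) were scarce, at 12.9 ± 1.08 and 11.5 ± 1.54 TPM and at 8.03 ± 0.735 and 6.92 ± 0.861 TPM, and their groups overlapped.

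Of the 7 genes of the U2 snRNP and prespliceosome formation, 2 fell and 5 did not pass the test. With 28.6% called lower, this role was near the 27.2% of all genes. The larger fall was in the gene described as required for assembly of U2 into the spliceosome (PAS_chr2-1_0455). It was at 45.8, 42.6 and 49.6 TPM in the control libraries and at 24.1, 25.3 and 24.3 TPM in the ILV3 libraries. Every ILV3 library was well below every control library. Its mean level went from 46.0 ± 3.48 to 24.6 ± 0.614 TPM, 0.534 times the control (log2 fold change -0.88, SE 0.07, limma adjusted p = 8.2e-06), kept in every alternative run (2.49e-07 to 7.60e-05). The authors' deposited table gives -0.89.

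Its description names Hsh49p as a partner in a complex. The gene described as similar to the mammalian factor SAP49, whose counterpart in *S. cerevisiae* is Hsh49p, is PAS_chr3_1082. It was the highest of the U2 genes, at 75.9, 73.7 and 76.9 TPM in the control libraries and 76.0, 77.2 and 76.5 TPM in the ILV3 strain. Its groups overlapped, and the 95% interval of its log2 fold change ran from -0.08 to 0.12. The difference in change between the described partners was not tested.

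The other U2 gene that fell is described only as a U2 snRNP component (PAS_chr1-1_0065). It was at 37.8, 35.9 and 38.4 TPM in the control libraries and 33.9, 34.0 and 31.5 TPM in the ILV3 strain, without overlap (log2 fold change -0.17, SE 0.06, limma adjusted p = 0.0363). This call was weak. It was lost with the replicate number as a block (adjusted p = 0.102) and when control replicate 1 or 3, or any ILV3 replicate, was left out (0.0603 to 0.131), with a range over the alternatives from 0.0147 to 0.131. Of the 4 further genes, the subunits of SF3a, a complex that helps U2 to bind the branch site, were at 33.4 ± 1.84 and 32.7 ± 0.22 TPM (PAS_chr4_0095) and at 12.6 ± 1.66 and 13.4 ± 0.686 TPM (PAS_chr3_0642). The DEAD-box RNA helicase needed for prespliceosome formation (PAS_chr3_0644) was at 26.6 ± 1.27 and 26.8 ± 1.16 TPM, and a U2-associated splicing factor (PAS_chr2-1_0418) at 19.2 ± 1.71 and 19.7 ± 0.693 TPM. In all 4 the groups overlapped.

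Of the 9 genes of the U4/U6.U5 tri-snRNP and its snRNAs, 2 rose and 7 did not pass the test. With 22.2% called higher, this role was at the background of 22.1% over all genes. The 17-kDa component, described as essential for splicing (PAS_chr3_0665), was at 80.1, 72.3 and 74.7 TPM in the control libraries and 84.8, 103 and 99.7 TPM in the ILV3 strain. The groups were apart, though ILV3 replicate 1 lay only just above control replicate 1. Its mean went up from 75.7 ± 4.01 to 96.0 ± 9.85 TPM (log2 fold change 0.33, SE 0.08, limma adjusted p = 0.00624). The RNA exonuclease required for U4 snRNA maturation (PAS_chr3_0681) was at 60.0, 72.01 and 69.7 TPM in the control libraries and 84.2, 78.2 and 86.1 TPM in the ILV3 strain, again without overlap. Its log2 fold change was 0.30 (SE 0.07, limma adjusted p = 0.00854). Both calls were kept in every alternative run.

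The tri-snRNP genes that did not pass all had means below 30 TPM. The GTPase of the U5 snRNP (PAS_chr2-2_0100), which in *S. cerevisiae* acts in spliceosome activation and disassembly, was at 18.8 ± 1.05 and 19.2 ± 1.40 TPM. The component of the second catalytic step (PAS_chr3_1077) was at 28.4 ± 2.37 and 25.8 ± 1.10 TPM (limma adjusted p = 0.188, 0.0278 when control replicate 2 was left out; range 0.0278 to 0.469). The least settled was a U4/U6.U5 component (PAS_chr1-1_0383) at 8.62, 8.27 and 11.1 TPM in the control libraries and 8.35, 8.0 and 5.75 TPM in the ILV3 strain. Control replicate 3 was high and ILV3 replicate 3 low in that gene, and the interval of its log2 fold change ran from -0.66 to 0.05. Of the 3 genes described as splicing factors of the U4/U6-U5 complex, PAS_chr2-2_0424 was at 14.6 ± 0.511 and 15.6 ± 0.456 TPM, with the ILV3 libraries above the control libraries and no call. PAS_chr3_0755 and PAS_chr4_0538 had log2 fold changes of -0.0051 and 0.0056, and the sign of each depended on the scaling or on which library was left out.

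The genes described by the Cef1p complex or only as spliceosome components number 5, of which 1 rose (20%, against 22.1% of all genes). The factor found in the Cef1p subcomplex (PAS_chr4_0083) was at 11.2, 9.13 and 11.2 TPM in the control libraries and 12.8, 13.02 and 13.8 TPM in the ILV3 strain. The groups did not overlap (log2 fold change 0.31, SE 0.10, limma adjusted p = 0.0286), but the call was lost without ILV3 replicate 1, 2 or 3 (0.0571, 0.0652 and 0.0904), with a range over the alternatives from 0.00892 to 0.0904. The other gene of a Cef1p complex (PAS_chr2-2_0188) was at 11.6 ± 1.297 and 10.9 ± 1.998 TPM. The most abundant of the 5, a spliceosome-associated factor (PAS_chr4_0764), was at 30.6, 28.6 and 31.6 TPM in the control libraries and 28.3, 25.3 and 26.4 TPM in the ILV3 strain. All of its ILV3 values were below all of its control values, and it narrowly missed the threshold (log2 fold change -0.18, limma adjusted p = 0.0551). It was called lower with median-ratio scaling (0.0408), with no trend in the variance (0.0486), without control replicate 2 (0.0247) and without ILV3 replicate 1 (0.0469), with a range over the alternatives from 0.0247 to 0.178. The spliceosome components PAS_chr1-1_0196 and PAS_chr4_0020 were at 15.1 ± 1.72 and 15.0 ± 0.115 TPM and at 12.9 ± 2.32 and 14.3 ± 1.44 TPM.

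None of the 7 remaining splicing factors passed the test, where 49.3% of all genes did. At an unadjusted limma p under 0.05 the count was 0 of the 7, against 2781 of the 5025 genes tested. The most abundant was the essential protein with roles in spliceosome assembly and exocytosis (PAS_chr4_0078), at 43.7, 37.8 and 40.7 TPM in the control libraries and 38.9, 41.1 and 35.4 TPM in the ILV3 strain, with overlapping groups. The zinc cluster protein linked to splicing and cycloheximide resistance (PAS_chr3_0582) varied most among control libraries, at 31.9, 46.6 and 39.0 TPM, against 48.7, 50.7 and 41.9 TPM in the ILV3 strain. Its log2 fold change was 0.27 (limma adjusted p = 0.106). It passed with the replicate block (0.0484) and without control replicate 2 (0.0171, at a log2 fold change of 0.40), with a range over the alternatives from 0.0171 to 0.323. The conserved zinc-finger protein (PAS_chr2-2_0340) was the steadiest of these in the control, at 23.7 ± 0.340 TPM, and was at 24.5 ± 1.45 TPM in the ILV3 strain. The other 4 had log2 fold changes from -0.17 (PAS_chr1-4_0414) to 0.13 (PAS_chr3_0992).

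Of the 6 genes of 3' end formation, 3 were called higher and 3 were not called, where the background is 22.1% called higher; this difference was not tested. Without ILV3 replicate 1, PAS_chr2-2_0134 was the 1 gene of the 6 still called. Their median log2 fold change was 0.15, against -0.02 for all genes. The largest rise was in a component of cleavage and polyadenylation factor I, CF I (PAS_chr2-2_0134). It was at 36.4, 37.8 and 38.6 TPM in the control libraries and 47.2, 46.7 and 52.5 TPM in the ILV3 strain. All ILV3 libraries were above all control libraries, and the mean rose 1.298-fold, from 37.6 ± 1.14 up to 48.8 ± 3.19 TPM (log2 fold change 0.37, SE 0.06, limma adjusted p = 0.00103; 0.000425 to 0.00521 over the alternatives). The other CF I component among the 39 (PAS_chr2-1_0232), the most abundant gene of this group, was at 63.7, 61.0 and 65.7 TPM in the control libraries and 62.3, 62.8 and 64.4 TPM in the ILV3 strain, with overlapping groups and an interval of -0.12 to 0.10 on the log2 scale. The difference between these components was not tested. Further subunits of cleavage factor I escaped the rule by their wording and did not pass. PAS_chr1-4_0355 was at 69.2 ± 5.09 and 62.5 ± 1.46 TPM (log2 fold change -0.14, limma adjusted p = 0.0820). PAS_chr3_0742 was at 19.5 ± 0.927 and 21.6 ± 1.61 TPM (log2 fold change 0.14, limma adjusted p = 0.151).

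The other rises among the genes of 3' end formation were less firm. Polyadenylation factor subunit 2 (PAS_FragB_0063) was at 41.0, 42.5 and 41.2 TPM in the control libraries and 49.5, 46.6 and 45.8 TPM in the ILV3 strain, without overlap (log2 fold change 0.18, SE 0.05, limma adjusted p = 0.0186). Its adjusted p was 0.0620 with the replicate block, and 0.0647, 0.0579 and 0.0824 without control replicate 1, control replicate 3 and ILV3 replicate 1, with a range over the alternatives from 0.00461 to 0.0824. A CPF subunit (PAS_chr3_0333) was at 35.5, 29.1 and 31.1 TPM in the control libraries and 40.5, 35.2 and 38.4 TPM in the ILV3 strain. ILV3 replicate 2 lay below control replicate 1, so these groups overlapped (log2 fold change 0.25, SE 0.08, limma adjusted p = 0.0338). Its call was lost without control replicate 2 (0.0880), control replicate 3 (0.0880), ILV3 replicate 1 (0.119) or ILV3 replicate 3 (0.0865), with a range over the alternatives from 0.0108 to 0.119. The essential CPF subunit (PAS_chr1-4_0122) was at 45.5 ± 2.64 and 47.4 ± 1.602 TPM. The RNA-binding CPF subunit (PAS_chr1-3_0183) was at 32.7 ± 1.996 and 35.6 ± 2.38 TPM (limma adjusted p = 0.205), and it passed with median-ratio scaling (0.0440) and quantile normalization (0.0164), with a range over the alternatives from 0.0164 to 0.520.

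**Figure D3:**
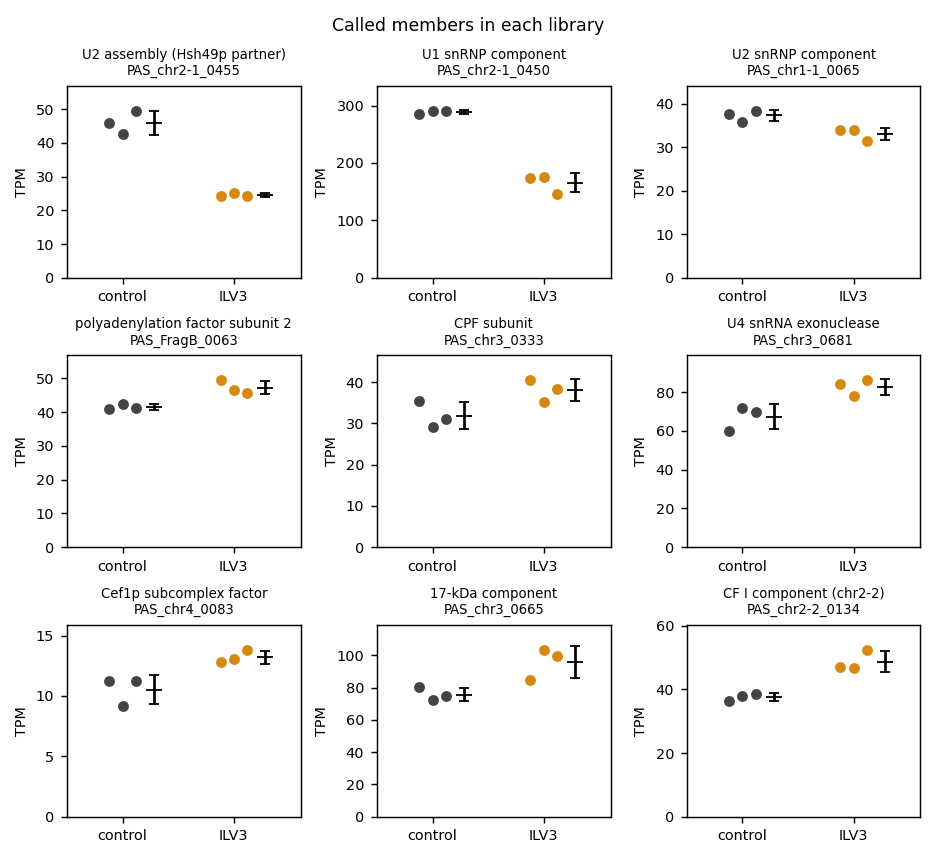
TPM (y axes, each from 0) of the 9 called genes in each library; points are libraries in the order of their numbers, and bars are mean ± SD of 3 libraries. Only the first and second panels, the U2 assembly protein and the U1 component, show ILV3 means near 0.534 and 0.573 times the control; the other 7 differ by less.

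Levels were also summed over the genes of each role, called genes included, as a description with no test. The 5 U1 genes summed to 380, 380 and 384 TPM in the control libraries and to 265, 271 and 237 TPM in the ILV3 libraries. The 7 U2 genes summed to 251 ± 11.5 and 227 ± 2.42 TPM, the 9 tri-snRNP genes to 244 ± 6.75 and 278 ± 6.65 TPM, and the 6 genes of 3' end formation to 253 ± 7.199 and 280.2 ± 3.51 TPM. In each of these 4 sums the libraries of the strains did not overlap. The U2 sum includes the called genes PAS_chr2-1_0455 (means of 46.0 and 24.6 TPM) and PAS_chr1-1_0065 (37.4 and 33.1 TPM). The tri-snRNP sum includes the called genes PAS_chr3_0665 (75.7 and 96.0 TPM) and PAS_chr3_0681 (67.3 and 82.8 TPM). The 3' end sum includes 3 called genes, PAS_chr2-2_0134 (37.6 and 48.8 TPM) among them. These 3 sums were not taken without their called genes, so they do not show a change shared by a role. The Cef1p and spliceosome component sums, 80.4 ± 6.97 and 80.0 ± 4.27 TPM, and those of the other splicing factors, 177 ± 3.08 and 185 ± 11.99 TPM, overlapped. All 39 genes summed to 1386 ± 34.0 TPM in the control libraries and 1308 ± 28.5 TPM in the ILV3 strain. Without the U1 component PAS_chr2-1_0450 the sums were 1097 ± 34.2 and 1142 ± 12.2 TPM.

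**Figure D4:**
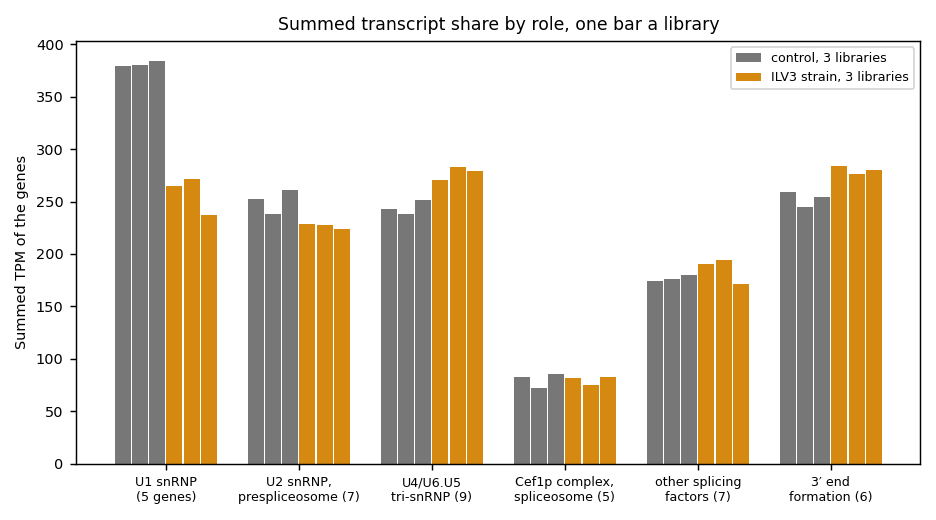
Summed TPM (y axis, from 0) of the genes of each role, with 1 bar for each of the 3 control (grey) and 3 ILV3 (orange) libraries. The U1 sum is lower in all ILV3 libraries (237 to 271 TPM against 380 to 384 TPM), and the tri-snRNP and 3' end sums are higher. Each sum includes the called genes of its role.

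For the 30 genes that were not called, the log2 fold change was positive in 17 and negative in 13, and its size was under 0.1 in 16. In 28 of the 30 the 95% interval, unadjusted for the number of genes, lay within 0.5 of no change on the log2 scale. The exceptions were PAS_chr1-1_0383 and the zinc cluster protein PAS_chr3_0582. Over all genes, 2396 of the 2547 that were not called met the same limit, so the 30 did not stand out in this. In the authors' deposited table the sign of change was the same for 36 of the 39 genes, and 14 of the 39 (35.9%) had a p-value under 0.05, against 54.7% of all genes; the 9 genes called here were among the 14.

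The largest falls have nearby locus numbers, which was noticed after the values were seen. The U1 component PAS_chr2-1_0450 and the U2 assembly protein PAS_chr2-1_0455 are the genes in question. Among the numbers between them, an exo-1,3-beta-glucanase of the cell wall (PAS_chr2-1_0454) went from 166 ± 8.995 down to 65.7 ± 1.71 TPM (log2 fold change -1.32, limma adjusted p = 1.46e-07), and a cytoplasmic aldehyde dehydrogenase (PAS_chr2-1_0453) went from 68.2 ± 5.85 down to 50.7 ± 0.943 TPM (log2 fold change -0.42). The unnamed genes PAS_chr2-1_0451 and PAS_chr2-1_0452 were at 57.7 ± 9.65 and 60.5 ± 1.92 TPM and at 16.2 ± 1.72 and 16.8 ± 1.04 TPM and did not pass (limma adjusted p = 0.558 and 0.683), though the first was called higher without control replicate 3 (0.0219, with a range over the alternatives from 0.0219 to 0.991). On the other side of the U1 gene, PAS_chr2-1_0449, a GTP-binding protein like mammalian Ran, was at 1883 ± 45.01 and 1815 ± 66.7 TPM and did not pass (limma adjusted p = 0.341). On the far side of the U2 gene, PAS_chr2-1_0456 did not pass (limma adjusted p = 0.941) and PAS_chr2-1_0457, a gene of transport from the endoplasmic reticulum to the Golgi, fell (log2 fold change -0.43). Locus numbers are the only evidence of position used here. Whether reads of adjoining genes could be shared was not tested.

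Genes of related steps, matched by description and not members of the 39, gave both directions, as did all genes tested (22.1% called higher and 27.2% lower). In the cap and cap-binding list, which also matched decapping and translation factors, 2 of 8 rose (25%) and 3 fell (37.5%). The nuclear cap-binding complex, which binds the 5' cap of new transcripts and aids splicing, fell in both subunits. Its large subunit (PAS_chr2-1_0662) went from 26.8 ± 2.20 to 21.9 ± 0.585 TPM (log2 fold change -0.27, limma adjusted p = 0.0126; 0.0507 without control replicate 1 and 0.0508 without control replicate 3; range 0.00178 to 0.0508). Its small subunit (PAS_chr1-1_0154) went from 71.4 ± 3.48 to 58.1 ± 4.51 TPM (log2 fold change -0.29, limma adjusted p = 0.00588). The capping enzyme's subunits had opposite calls: the alpha subunit (PAS_chr2-1_0216) rose from 15.8 ± 1.31 to 19.97 ± 0.853 TPM, and the beta subunit (PAS_chr3_0609) fell from 43.5 ± 3.57 to 30.5 ± 1.08 TPM.

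In the list of poly(A) and 3' end genes outside the rule, which also holds export and decay factors, 3 of 16 rose and 4 fell. These shares, 18.75% and 25%, were near the 22.1% and 27.2% of all genes. A poly(A) binding protein of the 3' end processing complex (PAS_chr1-4_0283) had the largest change of this list and went from 26.8 ± 1.26 down to 15.1 ± 1.51 TPM (log2 fold change -0.79, limma adjusted p = 6.57e-05). The other gene with that description (PAS_chr2-1_0097) was at 226.5 ± 7.42 and 211 ± 5.04 TPM and did not pass (limma adjusted p = 0.0841; 0.0390 without control replicate 2, and up to 0.496 over its alternatives). An mRNA 3' end processing factor (PAS_chr3_0256) rose from 15.6 ± 1.32 to 20.4 ± 0.570 TPM. Poly(A) polymerase (PAS_chr1-4_0645) was at 36.7 ± 2.46 and 39.3 ± 1.54 TPM and did not pass (limma adjusted p = 0.246), but was called higher with median-ratio scaling (0.0489) and quantile normalization (0.0135, with a range over the alternatives from 0.0135 to 0.529).

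Lsm proteins are relatives of the Sm ring, and some of them bind U6 snRNA or decaying mRNA. Of 5 genes described as Lsm proteins or by an Lsm domain, 1 rose (PAS_chr3_0442, from 192 ± 20.9 to 237 ± 6.85 TPM). That share, 20%, was near the 22.1% of all genes called higher. A list of 5 genes described as core Sm proteins or by the 5' splice site was added after the descriptions were read. Of these genes, 2 rose (40%, against 22.1% of all genes). They were the ring protein Sm D2 (PAS_chr1-4_0228), from 82.8 ± 3.80 to 107 ± 11.1 TPM, and the DEAD-box helicase of the 5' splice site (PAS_chr2-2_0187), from 49.3 ± 3.84 to 57.2 ± 3.79 TPM, whose adjusted p of 0.0374 lay above 0.05 without control replicate 2 (0.0847), ILV3 replicate 1 (0.136) or ILV3 replicate 2 (0.0535) and with no trend in the variance (0.0514), in a range from 0.00310 to 0.136. The mRNA export list had 25% of its 4 genes called higher and 50% lower, against 22.1% and 27.2% of all genes. In it, 1 of 4 rose (PAS_chr1-1_0453, a poly(A) RNA-binding export factor, log2 fold change 0.36) and 2 fell. These were a subunit of the THO complex (PAS_chr1-1_0255, log2 fold change -0.32) and a component of the TREX complex (PAS_chr1-1_0019, from 421 ± 12.1 to 349.7 ± 8.59 TPM). Further export genes were held by the poly(A) list. PAS_chr1-1_0082 (log2 fold change -0.43) and PAS_chr3_0097 (-0.30) were called lower, PAS_chr4_0800 (0.22) was called higher, and PAS_chr4_0394 (0.05) was not called. No list had a share of calls that was tested against the background of 49.3%.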

How the data were processed

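Messenger RNA of 6 yeast cultures was sequenced from stranded libraries, per the labels. The submitters' processing notes name HISAT2, TopHat2 and DESeq2; the sources used here do not give versions, roles, a genome build or an annotation. The deposited values are named FPKM by the authors, but each library sums to 1000000, so they were treated as deposited TPM. They hold no depth, so no count test, counting interval or floor was possible. The log2 fold change and p-value columns are the authors' own; the sources do not say whether that deposited p-value is adjusted.

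A filter at a mean of 1 TPM kept 5025 of 5030 genes. Linear models of log2(TPM + 1) were run in limma 3.58.1 (R 4.3.3) with a trend of variance on the mean and Benjamini-Hochberg adjustment across the 5025 genes, and the procedure was tested on simulated data. Same-numbered replicates of the strains deviated together (r across genes 0.223, 0.126 and 0.209, each above 0.1), so a fit blocked on the number is reported wherever a call changes under it. What same-numbered cultures share is not in the labels. Also tried were median-ratio and quantile scaling, pseudocounts of 0.1 and 5, the filter raised to 10 TPM or dropped, no trend, robust empirical Bayes and each library left out.

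Members and lists were chosen with earlier results of these data known. Roles were assigned from descriptions. Named with values in every library were up to 6 called genes a role with the largest changes and the most abundant gene of each role; other genes are given by mean and SD or by range. PAS_chr4_0141, PAS_chr1-1_0383, PAS_chr3_0582 and PAS_chr1-3_0072 fall outside that rule and were given library by library after their values were seen. Of 5030 locus tags, 0 matched the reference gene table, so genes are called by their descriptions.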

Additional observations from a re-analysis of the deposited data

How the results depend on the processing

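All 9 called genes kept their direction in every alternative run, and 5 of them (3 higher, 2 lower) also kept their call. Of the 30 uncalled genes, 5 were called in at least 1 alternative and 19 kept their sign throughout. With 1 library left out, the number of genes called higher ranged from 3 to 6, the number called lower from 2 to 5, and the median log2 fold change from -0.0096 to 0.07. In the same runs, the share of all genes called higher ranged from 18.7% to 21.1% and the share called lower from 22.3% to 32.4%. Median-ratio scaling gave 8 higher and 4 lower, and quantile normalization 8 higher and 3 lower, against 6 and 3. The shares of all genes called higher and lower moved as well. They were 26.1% and 27.2% with median-ratio scaling and 29.8% and 25.4% with quantile normalization, against 22.1% and 27.2% in the main fit. The replicate block gave 6 higher and 2 lower (19.6% and 24.4% of all genes) and changed the calls named above and no other call of the 39.

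Sign changes, none of them with a call, were as follows, and their cause was not tested. With median-ratio scaling the log2 fold change was 0.019 for PAS_chr2-1_0232, 0.020 for PAS_chr1-1_0196 and 0.018 for PAS_chr3_0755. With quantile normalization it was 0.068 for PAS_chr2-1_0232, 0.023 for PAS_chr4_0095 and -0.014 for PAS_chr4_0538. With 1 library left out it ranged from -0.091 to 0.062 for PAS_chr1-1_0196, -0.0073 to 0.13 for PAS_chr1-1_0416, -0.034 to 0.018 for PAS_chr2-1_0232, -0.031 to 0.081 for PAS_chr2-1_0418, -0.022 to 0.076 for PAS_chr2-2_0100, -0.19 to 0.045 for PAS_chr2-2_0188, -0.014 to 0.16 for PAS_chr3_0642, -0.021 to 0.048 for PAS_chr3_0644, -0.062 to 0.092 for PAS_chr3_0755, -0.038 to 0.072 for PAS_chr4_0538 and -0.028 to 0.12 for PAS_chr2-1_0452.

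Depth is unknown, replicates number 3 a strain, and the TPM values are shares, so a change in the few most abundant transcripts moves every other value.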
